A study of Mus musculus with 9 samples.

Results

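Chemokine and cytokine genes of lung fibroblasts were followed in 9 bulk RNA-seq libraries, 4 from control mice (PBS) and 5 from mice treated with the anthracycline doxorubicin (DOX), which damages DNA. The genes were 10 ligands chosen by name, Cxcl1, Cxcl2, Cxcl12, Cxcl14, Ccl2, Ccl7, Ccl11, Il6, Csf1 and Il33, out of 55302 gene symbols in the tables, of which 17428 were above 0 in any library. All 10 were found. The question was whether lung fibroblasts change their inflammatory signals after adjuvant chemotherapy.

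All mice were females that had received 4T1 or EO771 breast cancer cells in the mammary fat pad at 8 weeks of age and had the tumor resected 2 weeks later. DOX was given at 5 mg/kg in 2 doses, the first 4 days after resection and the second 5 days after that, and the lungs were removed at 24 h from the last dose, at an early metastatic stage. The control treatment is named both PBS and saline in the labels. The sources used here do not say which cancer cell line, and so which mouse strain (BALB/c or C57BL/6), gave these libraries. Fibroblasts were sorted as CD45-, EpCAM-, CD31- and PDGFRα+ cells by the methods, and the labels leave out CD31. Cells outside this gate, such as PDGFRα- fibroblasts and pericytes, were not analysed here. The labels number the libraries of each group as biological replicates.

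Chemokines are small secreted proteins that draw leukocytes along a gradient by way of G protein-coupled receptors. Cxcl1 and Cxcl2 attract neutrophils through Cxcr2. Cxcl12 retains and guides leukocytes and progenitors through Cxcr4 and is also bound by the scavenger receptor Ackr3. Ccl2 and Ccl7 bring monocytes out of the marrow through Ccr2, and Ccl11, or eotaxin, attracts eosinophils through Ccr3. Interleukin 6 signals through Il6ra and the shared chain Il6st to STAT3. Csf1 sustains macrophages through Csf1r, and interleukin 33 is a nuclear alarmin that acts through Il1rl1 when released. In the lung, fibroblasts are a known source of several of these ligands, and many of the genes are switched on quickly by NF-kB when cells sense damage or bacterial products.

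The genes lie in a few clusters of the mouse genome (mm10, GENCODE M21 gene bounds). Cxcl1 (chromosome 5, 90891241 to 90893115) and Cxcl2 (chromosome 5, 90903871 to 90905938) are neighbors on the plus strand, and Ccl2 (chromosome 11, 82035571 to 82037453), Ccl7 (82045712 to 82047525) and Ccl11 (82057823 to 82062955) follow one another on the plus strand of chromosome 11. RefSeq promoter windows of GRCm38.p6, 250 bases before to 50 bases after a start, were matched for 7 of the 10 genes in 8 windows. The NF-kB motif GGANTTTCC, searched on both strands, was found in the windows of 4 of the 7, Cxcl1, Cxcl2, Il6 and Csf1. It was present in 412 of 32851 windows of the same length (1.25%). The AP-1 motif TGANTCA was found in the Il6 window alone among these genes, and in 7.81% of all windows. The motifs were chosen with these promoters known, and a match is a match of letters, not a bound site. The bases upstream of the gene are printed for the neutrophil attractants and for Il6, because 2 neighboring genes carry the same letters at the motif and Il6 carries both motifs. The windows are chr5:90890995-90891240, chr5:90903649-90903870 and chr5:30012864-30013113, all on the plus strand, and capitals mark the motifs.
Cxcl1: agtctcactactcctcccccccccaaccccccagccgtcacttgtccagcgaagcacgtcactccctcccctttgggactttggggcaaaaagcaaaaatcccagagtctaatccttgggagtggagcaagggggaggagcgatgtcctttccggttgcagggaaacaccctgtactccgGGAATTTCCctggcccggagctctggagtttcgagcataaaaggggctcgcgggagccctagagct
Cxcl2: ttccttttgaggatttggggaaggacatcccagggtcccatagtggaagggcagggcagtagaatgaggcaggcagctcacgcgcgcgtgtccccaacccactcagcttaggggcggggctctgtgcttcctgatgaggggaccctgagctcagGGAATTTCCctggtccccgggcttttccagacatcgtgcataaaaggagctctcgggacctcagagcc
Il6: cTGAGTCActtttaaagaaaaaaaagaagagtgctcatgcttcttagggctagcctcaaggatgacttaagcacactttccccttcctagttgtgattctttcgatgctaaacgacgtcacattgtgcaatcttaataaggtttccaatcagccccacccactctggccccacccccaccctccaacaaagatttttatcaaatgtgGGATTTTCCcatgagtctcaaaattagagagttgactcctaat
The NF-kB motif begins at position -70 in Cxcl1, -96 in Cxcl2 and -43 in Il6, with the RefSeq start as 0, and the AP-1 motif of Il6 at -249. The match of Csf1 lies at -154 and on the other strand.

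Levels are normalized counts, that is, reads of a gene divided by the size factor of the library. MARS-seq sequences 1 fragment next to the poly(A) tail of a transcript, so that counts were not divided by transcript length. The 9 libraries held 432322 to 1285816 reads. The 10 genes together took 1092 of 6303233 reads, a share of 0.0173% (95% Wilson interval 0.0163 to 0.0184%, counting error only). Cxcl1 gave 582 of these reads (53.3%), Ccl2 132, Cxcl14 98, Il6 79, Cxcl12 73, Cxcl2 and Csf1 50 each, Ccl11 20, and Ccl7 and Il33 4 each. 6 of the 10 genes had reads in every library. A filter of 10 or more in at least 4 libraries left 2604 genes to test, among them 3 of the 10 (Cxcl1, Ccl2 and Il6). The other 7 were read from a fit over all 17428 genes above 0.

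Several facts of the libraries stand beside every value that follows. Of the fibroblast markers Col1a1 was at 1027 to 2333 and all 12 were detected, but Pdgfra, the sorted marker, was at 0.810 to 12.0 and Lum at 0 to 3.06. The sum of the 14 granulocyte markers was 1181 in PBS replicate 4, against 33.8 to 93.4 in the other 8 libraries, and 12 of the 14 were highest there. Its 14 epithelial markers summed to 488 (15.8 to 181 elsewhere), its 12 pan-immune markers to 318 (6.50 to 42.5 elsewhere) and its 12 fibroblast markers to 1761 (2554 to 3599 elsewhere), while Ptprc was at 2.43 and Epcam at 5.67. Over all 9 libraries the markers of endothelial cells summed to 108 to 347, those of smooth muscle cells and pericytes to 109 to 217, those of mesothelial cells to 0 to 7.29 and those of red blood cells to 0 to 81.8, of which the endothelial, mesothelial and red blood cell sums were highest in PBS replicate 4. Some of these sums also lay apart by group. The lymphocyte sums were 6.33 to 24 in PBS and 27.8 to 46.6 in DOX, without overlap. Apart from PBS replicate 4, the granulocyte sums were 33.8 to 37.9 in PBS and 65.8 to 93.4 in DOX, and the epithelial sums 15.8 to 36.6 and 44.5 to 181. Only 1 of the 14 granulocyte markers passed the filter, and not every marker followed the sum. In the same libraries S100a8 was at 2.00 to 5.05 in PBS and 0 to 15.3 in DOX, and S100a9 at 0 to 1.26 and 0 to 5.12. The part of these cell types in the results on the 10 genes was not tested. DOX replicate 2 held 35.3% of its reads on the ribosomal RNA gene CT010467.1, against 5.74 to 16.8% in the others. The strand setting of the count is not given in the sources used here. Among 32 pairs of a listed gene and an opposite-strand gene with shared exon bases, of which at least one averaged 10 or more, the opposite-strand gene was the higher in 18. Hspa1a was at 10.5 to 58.5, and Gm20481 over it on the other strand at 5270 to 12983. In PBS replicate 4 the leukocyte gene Arhgdib was at 18.6 and Pde6h, over it on the other strand, at 1269. If the opposite strand was counted, the values of the 10 genes may leave out most reads of their own transcripts. Ccl2 is the only 1 of the 10 with an annotated gene across it, Gm17268, which shares no exon base with it and was at 0 in all libraries, so that no value here can show reads assigned across the strand for the 10.

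No difference between DOX and PBS fibroblasts passed the test for any of the 10 genes, and the ranges of the groups overlapped in all 10. Groups did not overlap in 69 of the 2604 genes tested (2.65%) and in 157 of the 17428 above 0 (0.901%). By limma with Benjamini-Hochberg adjustment 0 of the 2604 (0%) passed 0.05, and 162 (6.22%) were under it unadjusted, none of the 3 tested ligands among them. On the recovered reads edgeR, DESeq2 and limma-voom also called 0 genes, with 149 (5.69%), 463 (2.7%) and 160 (6.11%) under 0.05 unadjusted. Without the filter limma called 3 of 17428 (0.0172%), none of them among the 10, with 459 (2.63%) under 0.05 unadjusted. That count of 3 rose with any single library left out, to 22 without PBS replicate 4, 12 without DOX replicate 5 and 5 to 8 without any other, again with none of the 10. Mean normalized counts were lower in DOX for 6 genes and higher for 4. Fitted log2 differences were lower for 5 and higher for 5, since Csf1 had a lower mean count and a fitted difference of 0.050. Over the 2604 tested genes 50.6% had fitted means below PBS and the median difference was -0.0092 on the log2 scale, and over the 17428 genes 48.8% lay below.

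**Figure D1:**
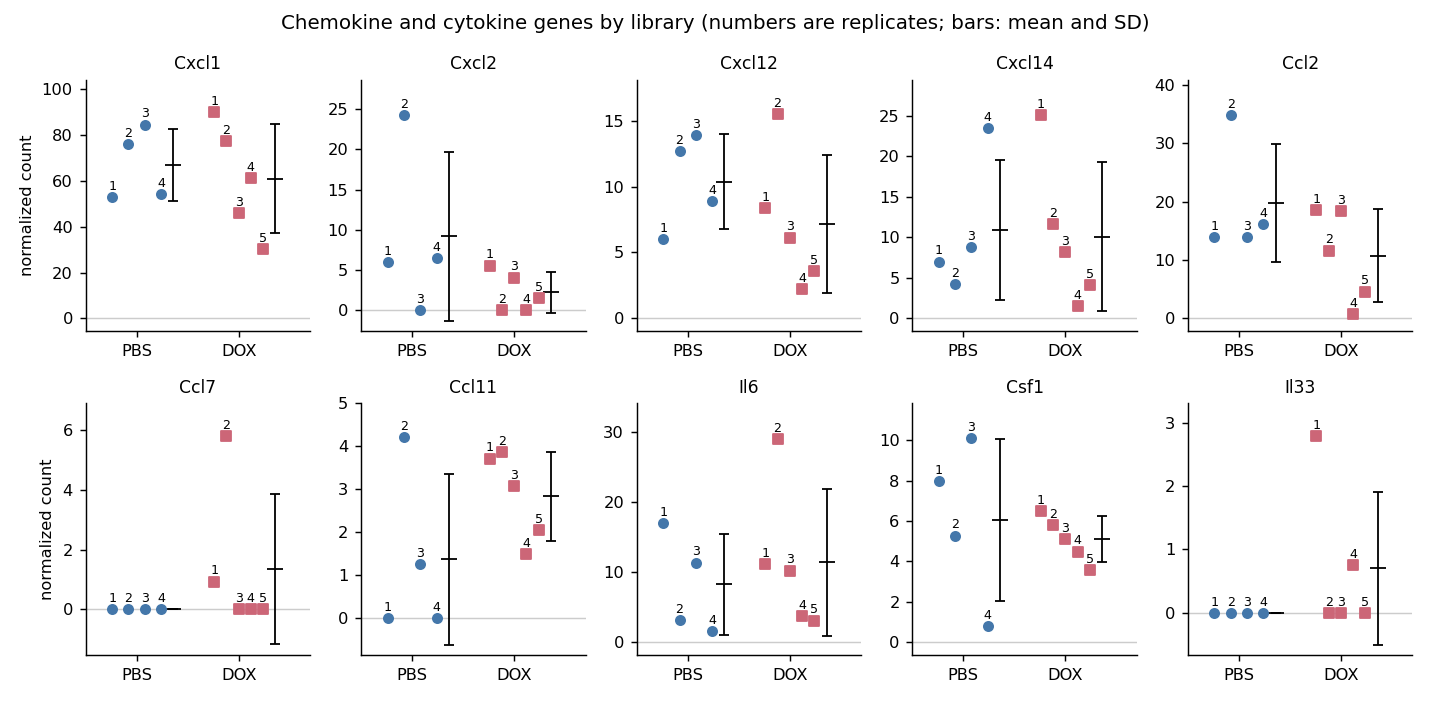
Normalized counts (y axis, linear, a separate scale in each panel) of the 10 genes in the 4 PBS and 5 DOX libraries. Each numbered point is 1 library and the bar at its right is the mean with SD, which may reach below 0 where values are scattered. Points of both groups overlap in every panel, and Ccl7 and Il33 are at 0 in all PBS libraries.

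Of the neutrophil attractants, Cxcl1 was the best measured of the 10 genes and Cxcl2 was read thinly. Cxcl1 was at 52.9, 76.0, 84.6 and 54.3 normalized counts in PBS replicates 1 to 4. In DOX replicates 1 to 5 it was at 90.0, 77.4, 46.0, 61.2 and 30.2. The DOX libraries held both the highest and the lowest value, so that the PBS range lay inside the DOX range. Means were 66.9 ± 15.8 (SD, n = 4) and 61.0 ± 23.9 (SD, n = 5). The log2 difference was -0.20 (SE 0.37, 95% interval -0.98 to 0.58), an interval that runs from 0.506 to 1.50 times the PBS level on this scale (adjusted p = 0.965 by limma over 2604 genes). Counting error alone would give a coefficient of variation of 12.4% in PBS and 13.0% in DOX, and 23.6% and 39.2% were found. Without DOX replicate 5, its lowest library, the log2 difference was 0.022.

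Cxcl2, encoded next to Cxcl1, had 50 reads in all. It was at 5.99, 24.3, 0 and 6.48 in PBS and at 5.57, 0, 4.09, 0 and 1.54 in DOX. PBS replicate 2 held more than the 5 DOX libraries together, and 1 PBS and 2 DOX libraries had no read. The log2 difference was -1.31 (SE 0.87, 95% interval -3.04 to 0.42, adjusted p = 0.781 by limma without the filter). Without PBS replicate 2 the PBS mean fell from 9.19 to 4.16.

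Cxcl12 and Cxcl14 are chemokines of resting tissue, and both had reads in all 9 libraries. Cxcl12 was at 5.99, 12.7, 13.9 and 8.91 in PBS and at 8.35, 15.5, 6.13, 2.24 and 3.59 in DOX. DOX replicates 4 and 5 lay below every PBS library and DOX replicate 2 above every one. The log2 difference was -0.65 (SE 0.72, 95% interval -2.07 to 0.78, adjusted p = 0.799 by limma without the filter). Cxcl14, a chemokine of epithelia and stroma whose receptor is not settled, was at 6.99, 4.22, 8.84 and 23.5 in PBS and at 25.1, 11.6, 8.17, 1.49 and 4.10 in DOX. Its highest PBS value was in PBS replicate 4, the library with the granulocyte and epithelial markers, and the part of those cells in it was not tested. Its log2 difference of -0.28 (SE 0.73, 95% interval -1.74 to 1.18, adjusted p = 0.909 by limma without the filter) became 0.15 without that library, and also 0.15 without DOX replicate 4, its lowest.

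The CC chemokines Ccl2, Ccl7 and Ccl11, which attract monocytes and eosinophils, differed widely in how well they were measured. Ccl2 was at 14.0, 34.8, 13.9 and 16.2 in PBS and at 18.6, 11.6, 18.4, 0.747 and 4.61 in DOX. Of the DOX libraries, 3 lay below every PBS library, and the other 2 lay above 3 of the 4 PBS libraries. Means were 19.7 ± 10.1 (SD, n = 4) and 10.8 ± 8.03 (SD, n = 5). The log2 difference of -1.16 (SE 0.77) had a 95% interval of -2.79 to 0.46 and an adjusted p of 0.820 by limma. In normalized count + 1 this interval runs from 0.144 to 1.38 times the PBS level. Its largest estimate came from limma-voom, -1.73 with an unadjusted p of 0.042 and an adjusted p of 0.757, and 6.11% of the genes in that fit were under an unadjusted p of 0.05. Without DOX replicate 4, which held 1 read of Ccl2, the log2 difference was -0.59. For Ccl2 an exact two-sided permutation test, with 126 arrangements of the 9 libraries and a smallest possible p of 0.0159, gave p = 0.206. The adjusted p over 17428 genes was 1. It could be low only if a large share of all genes reached the smallest p, so it is no further evidence on Ccl2.

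Ccl7 had 4 reads in all, 1 in DOX replicate 1 and 3 in DOX replicate 2, and none in PBS. A count of 0 allows up to 3 reads in a library, and no DOX library was above 3, so that no fold is given. Ccl11 was at 0, 4.22, 1.26 and 0 in PBS and at 3.71, 3.87, 3.06, 1.49 and 2.05 in DOX, from 5 and 15 reads. It was detected in all 5 DOX libraries and in 2 of 4 PBS libraries, and the highest value was in PBS replicate 2. The log2 difference was 1.00 (SE 0.85, 95% interval -0.70 to 2.70, adjusted p = 0.781 by limma without the filter).

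Among the cytokines, Il6 had the widest scatter of the 3 tested genes. It was at 17, 3.17, 11.4 and 1.62 in PBS and at 11.1, 29.0, 10.2, 3.73 and 3.07 in DOX. Both groups held libraries near 3 and libraries above 10, and the highest value was in DOX replicate 2, the library rich in ribosomal RNA, where it rests on 15 reads. Means were 8.28 ± 7.20 (SD, n = 4) and 11.4 ± 10.5 (SD, n = 5). The log2 difference was 0.44 (SE 0.89, 95% interval -1.44 to 2.33, adjusted p = 0.977 by limma), with 0.368 to 5.02 times the PBS level of normalized count + 1 inside the interval. It was -0.032 without PBS replicate 4 and -0.45 without PBS replicate 4 and DOX replicate 2 together.

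Csf1, the macrophage growth factor, was low and even in DOX, at 6.50, 5.81, 5.11, 4.48 and 3.59. In PBS it was at 7.99, 5.28, 10.1 and 0.810, so that the DOX values lay inside the PBS range. The log2 difference was 0.050 (SE 0.76, 95% interval -1.47 to 1.57, adjusted p = 0.985 by limma without the filter) and -0.51 without PBS replicate 4, where Csf1 had 1 read. It was -0.029 without DOX replicate 1. Il33 had 4 reads, 3 in DOX replicate 1 and 1 in DOX replicate 4, and none in PBS. As for Ccl7, no library passed 3 reads, and no fold is given.

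**Figure D2:**
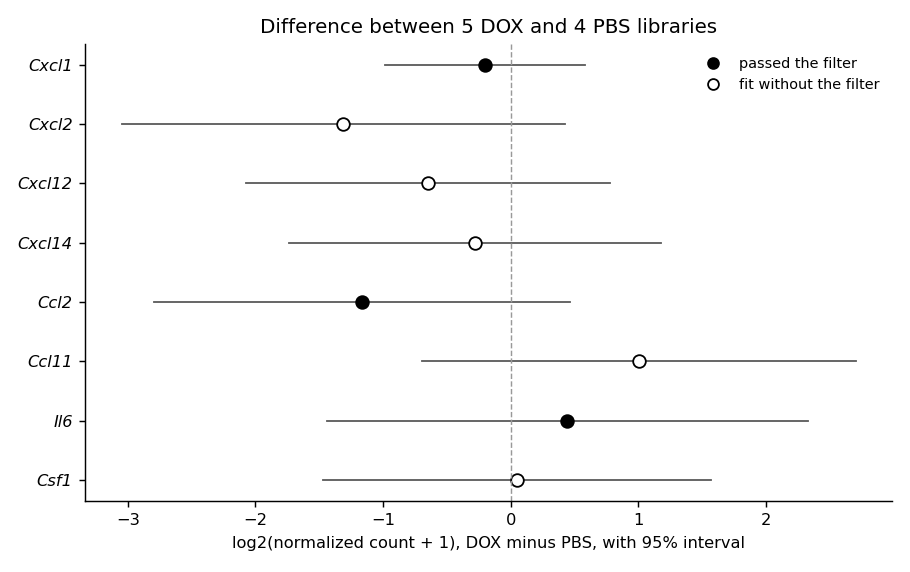
Fitted difference in log2(normalized count + 1) between DOX and PBS (x axis) for 8 of the genes (y axis), with 95% intervals from limma as lines. Filled points are the 3 genes that passed the filter on low values and open points are 5 read from the fit without it, and every interval includes 0.

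For 3 of the 10 genes, Cxcl12, Cxcl14 and Ccl2, DOX replicates 4 and 5 held the 2 lowest values of all 9 libraries. In these 2 libraries Cxcl12 had 3 and 7 reads, Cxcl14 2 and 8, and Ccl2 1 and 9. The share of all genes with the same 2 libraries lowest was not counted. Summed over the 10 genes, normalized counts were 111, 165, 144 and 112 in PBS and 173, 161, 101, 76.2 and 52.8 in DOX. Immediate early and heat shock genes, which also respond to tissue handling and cell sorting, summed over 26 genes to 893, 923, 1038 and 689 in PBS and to 1095, 1049, 1075, 650 and 716 in DOX. Of these sums, Junb gave 356, 382, 374 and 331 in PBS and 374, 232, 324, 160 and 193 in DOX. The strand of the Junb reads is in doubt, as given below, and so is that of other genes of the list. Means over the 9 libraries were 32.8 for Hspa1a and 7467 for Gm20481 on its other strand. They were 38.3 for Jund and 188 for Gm11175, 29.3 for Jun and 52.2 for Junos, and 1.76 for Fosl1 and 203 for Ccdc85b. Junb and Dusp1 were higher than the genes across them. If the opposite strand was counted, the sums may leave out many reads of the listed genes. The 3 lowest sums of this list were those of DOX replicate 4, PBS replicate 4 and DOX replicate 5. The 2 DOX libraries among them also had the lowest sums of the 10 genes. DOX replicates 4 and 5 had the most reads of all libraries, 887830 and 1285816. The part of handling or of depth in the levels of the 10 genes was not tested. In bulk libraries, fewer cells that express a gene and less RNA per cell cannot be told apart.

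**Figure D3:**
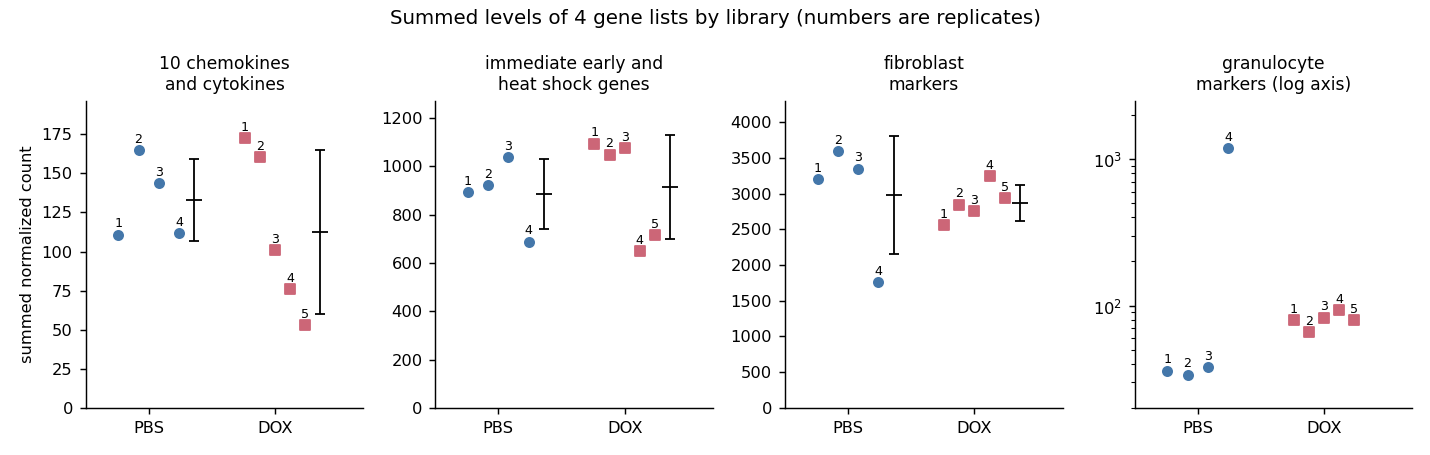
Summed normalized counts (y axis, linear from 0 except for the log axis of the granulocyte markers) of 4 gene lists in the 4 PBS and 5 DOX libraries. Points are numbered by replicate and bars are mean and SD where drawn, and DOX replicates 4 and 5 are low in both the chemokine and the immediate early sums, while PBS replicate 4 stands apart in the granulocyte markers.

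Apart from Csf1r, receptors for these ligands were thinly read in the sorted cells, with at most 79 reads each. Of 13 receptor genes 3 were at 0 in all libraries (Cxcr1, the chemokine decoy Ackr1 and the interleukin 33 receptor Il1rl1) and 2 were tested, neither of which passed (0 of 2). Il6st, the signaling chain of the interleukin 6 family, was at 2.43 to 24 in PBS and 0.747 to 15.8 in DOX (log2 difference -0.29, 95% interval -2.22 to 1.64, adjusted p = 0.977 by limma), and the difference was above 0 without PBS replicate 3 (0.20) or DOX replicate 4 (0.23). Csf1r, with 2261 reads, was at 189 to 293 in PBS and 201 to 288 in DOX (log2 difference -0.054, adjusted p = 0.985 by limma, and 0.042 without PBS replicate 3), although the other 15 macrophage markers summed to only 1.94 to 89.1. Its 3′ end shares 873 exon bases with Hmgxb3 on the other strand, so that these reads may be of Hmgxb3 if the opposite strand was counted. Cxcr2, the receptor of Cxcl1 and Cxcl2 on neutrophils, had 5 reads in all, Ccr2 2, Ccr3 1 and Ccr1 5. Il6ra (0 to 13.8), Cxcr4 (0 to 17.8), Ackr3 (0 to 12.6) and Il1rap (0 to 1.94) did not pass the filter.

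Of 31 further chemokine ligands 14 were at 0 in all libraries, 2 were tested and neither passed. Ccl27a gave 4471 of their 4731 reads and Cxcl16 gave 120. Ccl27a, a skin chemokine, was at 234 to 394 in PBS and 349 to 817 in DOX (log2 difference 0.53, SE 0.27, 95% interval -0.05 to 1.11, adjusted p = 0.761 by limma). It lies across Il11ra1, with 8 shared exon bases, and the 2 genes' reads may be exchanged if the opposite strand was counted. Cxcl16, a membrane-bound chemokine, was at 1.26 to 25.0 in PBS and 2.04 to 26.9 in DOX (log2 difference 0.27, adjusted p = 0.980 by limma, and -0.32 without PBS replicate 3 or -0.13 without DOX replicate 4). The leukocyte chemokines Ccl6 and Ccl5, named after their values were seen, were at 41.3 and 12.2 in PBS replicate 4 and at most at 1.54 and 3.59 in the other libraries. Cxcl10 was at 0 to 7.15. Art3, which shares 133 exon bases with it on the other strand and was also named afterwards, was at 390 to 1093 in PBS and 331 to 800 in DOX, with groups that overlap. These Art3 reads may be of Cxcl10 if the opposite strand was counted, so that the level of Cxcl10 is in doubt.

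Of 35 other cytokines and growth factors 8 were at 0 in all libraries and 3 were tested, of which none passed and all 3 had fitted means below PBS (median log2 difference -0.51, against -0.0092 over all tested genes). Tgfb1 was at 0 to 37.3 in PBS and 0 to 12.8 in DOX (log2 difference -1.15, 95% interval -3.67 to 1.38). Its highest value was in PBS replicate 4, without which the PBS mean fell from 15.5 to 8.20, the filter was missed and the log2 difference of the fit without a filter was -0.45. Il7, a survival factor of lymphocytes, was at 85.8 to 340 in PBS and 75.4 to 176 in DOX (-0.34, -1.18 to 0.50), and Tgfb3 at 7.29 to 19.0 and 4.09 to 14.2 (-0.51, -1.89 to 0.87). Without PBS replicate 1 the difference of Il7 was 0.0073. Limma adjusted p-values of the 3 genes were 0.894, 0.911 and 0.927.

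The regulators that switch these ligands on and off had fitted means on both sides of PBS. Of 27 genes of NF-kB, STAT3 and mRNA decay 11 were tested, with fitted means above PBS for 7 and below PBS for 4, and none passed (median log2 difference 0.08). These counts became 4 above and 7 below without PBS replicate 4 (median -0.066) and also without PBS replicate 2 (median -0.063), and 5 above and 6 below without DOX replicate 2 or DOX replicate 4. Nfkbia encodes the inhibitor IκBα, itself a target of NF-kB. It was at 42.0, 59.1, 70.7 and 39.7 in PBS and at 40.8, 32.9, 36.8, 20.2 and 29.7 in DOX. Only the lowest PBS value lay inside the DOX range, by a single DOX library, and the log2 difference was -0.70 (SE 0.37, 95% interval -1.49 to 0.09, adjusted p = 0.769 by limma). Stat3, which carries the interleukin 6 signal, was at 15 to 54.3 in PBS and 8.96 to 28.8 in DOX (log2 difference -0.87, 95% interval -1.93 to 0.19, adjusted p = 0.778 by limma). Stat5a, which shares 72 exon bases with Stat3 on the other strand, was at 78.3 to 201 in PBS and 51.5 to 166 in DOX. The reads of Stat3 and Stat5a may be exchanged if the opposite strand was counted, so that the difference of Stat3 is in doubt. Tnip1, an inhibitor of NF-kB signaling, was at 4.22 to 40.0 in PBS and 18.7 to 122 in DOX (log2 difference 1.07, 95% interval -0.33 to 2.47, adjusted p = 0.804 by limma). The 122 was in DOX replicate 2, without which the DOX values were 18.7 to 39.8, the DOX mean fell from 45.1 to 25.9 and the log2 difference was 0.62. It was 0.50 without PBS replicate 2.

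Of 26 immediate early and heat shock genes 18 were tested, with fitted means above PBS for 13 and below PBS for 5, and none passed (median log2 difference 0.24). Without PBS replicate 4 there were 9 above and 8 below (median 0.11), and with any other single library left out 10 to 13 above and 5 to 7 below. Junb was at 331 to 382 in PBS and 160 to 374 in DOX (log2 difference -0.56, 95% interval -1.12 to 0.0057, adjusted p = 0.761 by limma). Prdx2, which shares 173 exon bases with it on the other strand, was at 0 to 17.6. These Junb reads may be of Prdx2 if the opposite strand was counted. The heat shock genes Hspa1a and Hspa1b, near-identical copies between which reads may be split, had log2 differences of 0.90 and 0.95, each with an adjusted p of 0.775 by limma. Without PBS replicate 4 these were 0.61 and 0.46. Gm20481, which shares 564 exon bases with Hspa1a on the other strand, was at 6065 to 8457 in PBS and 5270 to 12983 in DOX. Most reads of Hspa1a may be among these if the opposite strand was counted.

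The genes whose levels most resembled those of the 3 tested ligands were taken from 2603 others by the Pearson correlation of log2(normalized count + 1) over the 9 libraries. As the highest of so many they are a description, with no test, and libraries share depth and sorting. Cxcl1 was most like Pnrc1 (r = 0.979, rho = 0.917), and r remained 0.966 without the 2 libraries farthest from its median, DOX replicates 5 and 1. Med13l (r = 0.913) and Rara (r = 0.910) followed, at 0.725 and 0.775 without those 2 libraries. Ccl2 was most like Gm44560 (r = 0.957, rho = 1.0, and 0.951 without DOX replicates 4 and 5), then Nox1 (0.953) and Plekhh1 (0.950), which were at 0.483 and 0.702 without them. Il6 was most like Gm16174 (r = 0.931, rho = 0.883), Gadd45b (0.905) and Plpp3 (0.866), at 0.915, 0.875 and 0.758 without PBS replicate 4 and DOX replicate 5. All of these genes except Plekhh1 and Gadd45b stayed below 50 normalized counts.

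**Figure D4:**
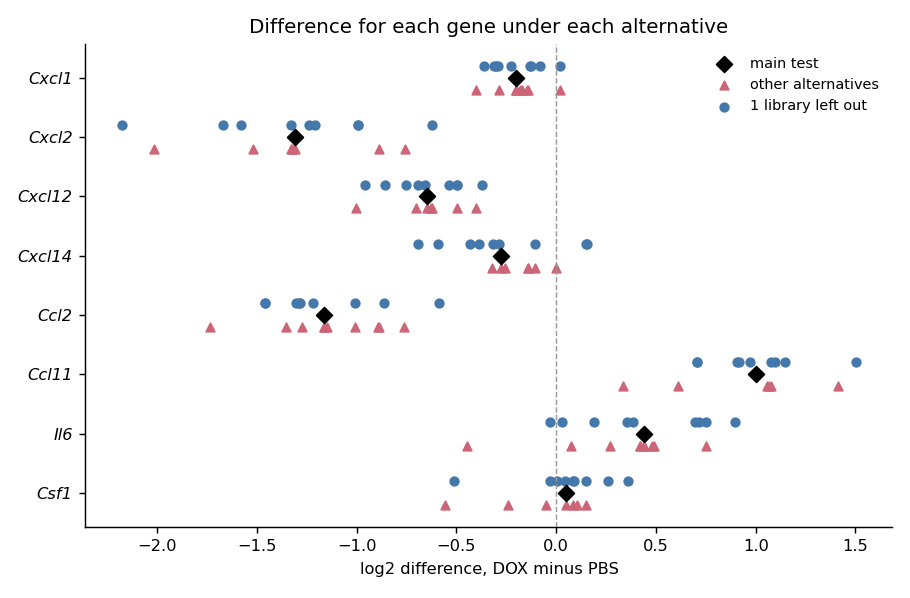
Log2 difference between DOX and PBS (x axis) for 8 genes (y axis) under the main test (diamonds), with 1 library left out (circles) and under other alternatives (triangles). Cxcl2, Cxcl12, Ccl2 and Ccl11 keep 1 direction throughout, whereas Cxcl1, Cxcl14, Il6 and Csf1 cross 0.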

How the data were processed

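RNA of sorted lung fibroblasts was made into MARS-seq libraries. By the methods and the submitters' processing notes, STAR aligned the reads to mm10 and HTSeq-count assigned them to genes of a RefSeq annotation. Neither tool's version nor the strand option of HTSeq-count is given in the sources used here. Each library's table, as deposited, holds a normalized signal on 55421 lines, and 119 repeated symbols were summed to give 55302. All values (100%) were whole multiples of a step of the library within 1e-06, so that whole reads could be recovered, and the steps matched the median-of-ratios size factors of DESeq2. Whether molecular tags were collapsed is not stated, and counting errors cover the counting of reads only. At a normalized count of 10, counting alone gives a coefficient of variation of 22.6% in the deepest library and 44.0% in the shallowest. No 2 libraries of a group agreed within sampling noise.

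The groups were compared with limma 3.58.1 in R 4.3.3, with a variance trend on level, on log2(normalized count + 1). The test covered 2604 genes, those reaching 10 in 4 or more libraries, with Benjamini-Hochberg adjustment over all of them and calls at 0.05. Fold changes on this scale understate the change of low genes. Ligands that missed the filter were read from the same fit over all 17428 genes above 0. Recovered reads were also tested by edgeR 4.0.16 with TMM, by limma-voom and by DESeq2 1.42.0. Other alternatives were 2 other filters, 2 other pseudocounts, totals without ribosomal RNA, each library left out, 2 libraries left out together and the replicate number as a block. Their use within the fit without a filter was chosen after seeing the data. Exact two-sided permutation tests were run for single genes. Both limma and edgeR were also run on simulated data, and the outcome is not reported here.

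The 10 genes and the lists of receptors, other ligands, regulators, immediate early genes and cell type markers were chosen with earlier results of these data known, so that lists are described by counts and medians only. Named beside the 10 were their receptors, opposite-strand genes over them, up to 3 tested genes of lowest p in each list that is no cell type list, and the 3 genes most correlated with each tested ligand. 1 further receptor gene is not reported here. Of 17428 symbols above 0, 98.3% were found in GENCODE M21, which gave coordinates. Promoters were from RefSeq GRCm38.p6. Python 3.11.15 with NumPy 2.4.6, pandas 2.3.3, SciPy 1.17.1 and matplotlib 3.10.9 was used.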

Additional observations from a re-analysis of the deposited data

Results flagged for a closer look

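In each group of 4 or 5 libraries, the gap between the most extreme library and its nearest neighbor was set against the range of the group. The limits used mark about 1 in 20 groups by chance if values are normally distributed. That rate cannot be taken over here, since some groups held low counts with several values of 0. The PBS groups of Ccl7 and Il33, at 0 throughout, could not be marked at all. The groups were also a chosen part of the genes and marker sums. The number of marks is therefore a description, with no test against chance. Of 36 groups looked at, 7 were marked. Ccl2 was at 34.8 in PBS replicate 2, against 13.9 to 16.2 in the other PBS libraries, and its log2 difference without that library was -0.87. Ccl7 was at 5.81 in DOX replicate 2, from 3 reads, against 0 to 0.928 in the other DOX libraries. Il33 was at 2.78 in DOX replicate 1, also from 3 reads, against 0 to 0.747.

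The other 4 marks were sums of cell type markers in PBS replicate 4. The granulocyte sum was 1181, where the other PBS libraries had 33.8 to 37.9. The pan-immune sum was 318, with 9.99 to 15.1 in the others, and the epithelial sum 488, with 15.8 to 36.6 in the others. Hemoglobin and other red blood cell genes came to 81.8, and elsewhere in PBS to at most 6.31. The part of these cells in the levels of the 10 genes was not tested. Without PBS replicate 4 the PBS means were 71.2 for Cxcl1, 20.9 for Ccl2, 10.5 for Il6 and 7.79 for Csf1, and 6.68 for Cxcl14 against 10.9 with it.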

How the results depend on the processing

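No call among the 10 genes or among the listed receptors, ligands, regulators and immediate early genes was made under any of the 19 alternatives. Over all genes that passed a filter 0 were called throughout, with 1 library left out from 0 to 0. Without the filter limma called 3 of 17428, and this count was 10 with a pseudocount of 0.5, 0 with a pseudocount of 5, 5 with totals without ribosomal RNA, 5 to 22 with 1 library left out, 20 without PBS replicate 4 and DOX replicate 2 together and 0 with the replicate block. The highest, 22, was without PBS replicate 4. In 166 refits of single genes the lowest adjusted p was 0.703, and the direction turned in 11, which concerned 4 genes. For Cxcl1 the log2 difference of -0.20 was 0.022 without DOX replicate 5 and with the replicate block, which leaves that library out. For Cxcl14 it was 0.15 without PBS replicate 4 and 0.15 without DOX replicate 4. For Il6 it was -0.032 without PBS replicate 4 and -0.45 without PBS replicate 4 and DOX replicate 2 together. For Csf1 it was -0.51 and -0.55 in these 2 settings, -0.029 without DOX replicate 1, -0.051 with a pseudocount of 5 and -0.24 with DESeq2. The cause was not tested. With 1 library left out, or PBS replicate 4 and DOX replicate 2 together, Cxcl1 ranged from -0.40 to 0.022, Cxcl14 from -0.69 to 0.15, Il6 from -0.45 to 0.89 and Csf1 from -0.55 to 0.36. With 1 library left out, Ccl2 ranged from -1.46 to -0.59, Cxcl2 from -2.18 to -0.62, Cxcl12 from -0.96 to -0.37 and Ccl11 from 0.71 to 1.50.

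Replicate numbers are shared by the groups, and the labels state no pairing. Same-numbered libraries correlated in their deviations from the group means by 0.066, 0.037, 0.021 and 0.062, against -0.080 to 0.040 for other pairs. PBS replicates 1, 2 and 4 correlated best with the DOX library of their number, and PBS replicate 3 with DOX replicate 2 (0.027). Whether a weak pairing exists was not tested, and the main test took the libraries as unpaired. With the replicate number as a block, 0 of 2450 genes were called, as without it. Low values limit the rest: 7 of the 10 genes did not pass the filter, and 3 were under 10 in every library.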
